A study of Mus musculus with 12 samples.

Results

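The apolipoprotein genes of GFP(+) liver cells did not follow 1 course after bile duct ligation (BDL). *Apoa1*, *Apoa2*, *Apob*, *Apoc3*, *Apoh* and *Apom*, which hepatocytes are known for, had lower group means on BDL day 14 than on day 0, by 3.33 to 8.78-fold. *Apoe* and *Apoc2* were 3.07-fold and 6.33-fold higher. *Apoc1*, which lies beside *Apoe* on chromosome 7, had neither pattern, with a mean 1.28-fold above day 0 on BDL day 3 and 10.9-fold below it on BDL day 14. The fourth gene of that cluster, *Apoc4*, was 2.49-fold lower on BDL day 3 and 1.83-fold lower on BDL day 14.

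The 10 genes were chosen by symbol out of the 16971 listings of the deposited table, and all 10 passed a minimum of 10 on the normalised counts summed over the libraries, which kept 12889 genes. They were picked with earlier results of these data in view, and so were the classes, hepatocyte-type for the 6 genes above and macrophage-type for *Apoe*, *Apoc1*, *Apoc2* and *Apoc4*. The values across the groups are therefore a description, and no test was made on them. The classes are names for what these genes are known for and were not read from the samples.

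The libraries came from adult C57BL/6 mice of the genotype Prom1CreERT2-nLacZ/+;Rosa26Lsl-GFP/+. All were given tamoxifen at 6 weeks of age, 7 days before the surgery or, for day 0, before collection. Age at collection and time since tamoxifen therefore differed between the groups. In these mice the *Prom1* locus drives a tamoxifen-dependent Cre and nuclear LacZ, and Cre switches on GFP for good, so the sort takes cells that expressed *Prom1* at the time of tamoxifen and whatever descends from them. Dead cells were gated out and GFP(+) cells were collected from the nonparenchymal fraction of digested livers, a fraction from which most hepatocytes are removed by centrifugation. The groups are day 0 (sham in the labels, before BDL in the study's text, 3 libraries), BDL day 3 (3 libraries) and BDL day 14 (6 libraries in the labels, 4 in the table). No sham libraries match the times of the BDL groups, so BDL, surgery and time cannot be told apart. The libraries behind the table came from 1 male and 2 female mice on day 0, 2 males and 1 female on BDL day 3, and 3 males and 1 female on BDL day 14, and the part of sex in the values was not tested.

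Apolipoproteins are the proteins that hold lipoprotein particles together and steer them. Apolipoprotein B forms the frame of very low density lipoprotein, apolipoproteins A-I and A-II that of high density lipoprotein, and the small C apolipoproteins and apolipoprotein E move between particles and govern lipases and receptors. Hepatocytes secrete most of the plasma pool, while macrophages also make apolipoproteins E, C-I, C-II and C-IV from the *Apoe* gene cluster, in part under the liver X receptors that sense cholesterol.

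All positions are on GRCm38, as in the table and in GENCODE M21. The *Apoe* cluster spans 27610 bases of chromosome 7, from 19671579 to 19699188, and its 4 genes are read from the minus strand in the order *Apoe* (19696109 to 19699188), *Apoc1* (19689481 to 19692660), *Apoc4* (19678083 to 19681479) and *Apoc2* (19671579 to 19677941). *Apoa1* (plus strand, 46228580 to 46230466) and *Apoc3* (minus strand, 46232933 to 46235636) lie end to end within 7057 bases of chromosome 9. The other members lie apart, *Apoa2* on chromosome 1 (171225054 to 171226379, plus), *Apob* on chromosome 12 (7977648 to 8016835, plus), *Apoh* on chromosome 11 (108343354 to 108414396, plus) and *Apom* on chromosome 17 (35128997 to 35132050, minus). A readthrough gene, *Gm44805* (chromosome 7, 19671584 to 19681423, minus), overlaps *Apoc2* and *Apoc4* on their own strand, so reads of these genes may have been split between them. The table lists *Gm44805* at 0.524, 2.86 and 1.52 on day 0, BDL day 3 and BDL day 14.

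The start regions of *Apoa2*, *Apob* and *Apoe* are shown because these genes differed in opposite directions, *Apoa2* and *Apob* lower and *Apoe* higher after BDL. Each is the 250 bases before the start of transcription that RefSeq gives on GRCm38.p6, read 5′ to 3′ on the gene's own strand, and capitals mark matches to the 6 motifs named next. They are chr1:171224804-171225053 (plus), chr12:7977427-7977676 (plus) and chr7:19699189-19699438 (minus).
Apoa2: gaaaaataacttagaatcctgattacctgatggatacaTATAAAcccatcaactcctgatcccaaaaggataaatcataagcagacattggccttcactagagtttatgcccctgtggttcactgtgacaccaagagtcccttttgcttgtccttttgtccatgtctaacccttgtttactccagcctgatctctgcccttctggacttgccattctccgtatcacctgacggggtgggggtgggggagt
Apob: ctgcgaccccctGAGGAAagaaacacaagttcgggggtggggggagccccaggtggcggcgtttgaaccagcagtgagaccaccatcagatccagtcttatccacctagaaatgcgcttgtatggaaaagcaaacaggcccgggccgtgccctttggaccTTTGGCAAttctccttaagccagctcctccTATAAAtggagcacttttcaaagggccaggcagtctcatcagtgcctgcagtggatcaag
Apoe: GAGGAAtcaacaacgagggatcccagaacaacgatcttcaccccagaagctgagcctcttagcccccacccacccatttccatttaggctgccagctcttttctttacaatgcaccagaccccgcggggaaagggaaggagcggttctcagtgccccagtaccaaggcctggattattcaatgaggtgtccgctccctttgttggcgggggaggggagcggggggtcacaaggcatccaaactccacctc

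The letters searched on both strands were TATAAA (the TATA box), GTTAAT (core of the HNF1 site), CAAAGTCCA (core of the HNF4 site), TTGCNNAA (core of the C/EBP site), GAGGAA (core of the PU.1 site) and AGGTCA (core of nuclear receptor sites). RefSeq windows were at hand for 8 of the 10 members, all but *Apoc1* and *Apoc3*. Where RefSeq gives several starts (2 for *Apoa2*, 3 for *Apoe*), the one nearest to the GENCODE start was taken, and the only start of *Apoh* lies 51943 bases from the GENCODE start given above. TATAAA stood in 2 of the 8, in *Apob* from 60 to 55 bases before the start and in *Apoa2* from 212 to 207 bases before it, against 12.4% of all 32851 windows of this length. TTGCNNAA was found in *Apob* alone, from base 90 to base 83 before the start, and in 9.56% of all windows. GAGGAA stood in 3 members, *Apob*, *Apom* and *Apoe*, where 23.3% of all windows hold it, and AGGTCA in *Apoh*, *Apoc2* and *Apoc4*, where 14.0% do. GTTAAT was found in *Apoc2* alone (6.43% of all windows) and CAAAGTCCA in none of the 8 (0.384%). No motif was shared by all members of either class, and a match of letters is not a site of binding.

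The deposited values are group means of read counts that the authors scaled by the upper quartile. No value per library was used, and the reads behind each library are unknown. The group means and the mean over all libraries fit group sizes of 3, 3 and 4, and so the highest library and the geometric mean over the 10 libraries, which the table also gives, set limits on the value any library of a group can have. The same geometric mean gives an approximate within-group SD on the log2 scale and from it an SE for each log2 ratio. This assumes that the relative spread is alike in the 3 groups. The study describes its BDL day 14 replicates as varying more than those of day 0, so the assumption may not hold. The SD of the members ran from 0.36 (*Apoe*) to 1.26 (*Apom*) with a median of 0.63, and that of all genes kept had a median of 0.58.

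Markers of several cell types were present in these libraries. The 10 macrophage markers summed to 13267 normalised counts on day 0, 24287 on BDL day 3 and 21150 on BDL day 14, and none was at the floor of the table in any group (the floor is 4 times the lowest mean of a group). The 16 hepatocyte markers summed to 5442, 2417 and 1557. On BDL day 14 against day 0, 15 of 16 were past 1.5-fold lower, where 28.8% of all genes kept were, and *G6pc* was at the floor. The labels name the cells *Prom1*-expressing progenitors and their progeny. Of the 10 cholangiocyte markers 7 passed the minimum, and apart from *Spp1* (459, 175 and 792), which macrophages also express, none was above the 21.5 of *Krt19* on day 0. *Prom1* itself, whose locus drives the label, was at 6.66, 0.956 and 1.76. The 10 mesenchymal markers summed to 1317, 23.8 and 124, and the 8 sinusoidal endothelial markers to 1186, 398 and 1579. The macrophage list thus had the largest sum in every group, against the labelled cell type. For every member, fewer cells of a type and less RNA per cell cannot be told apart.

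**Figure D1:**
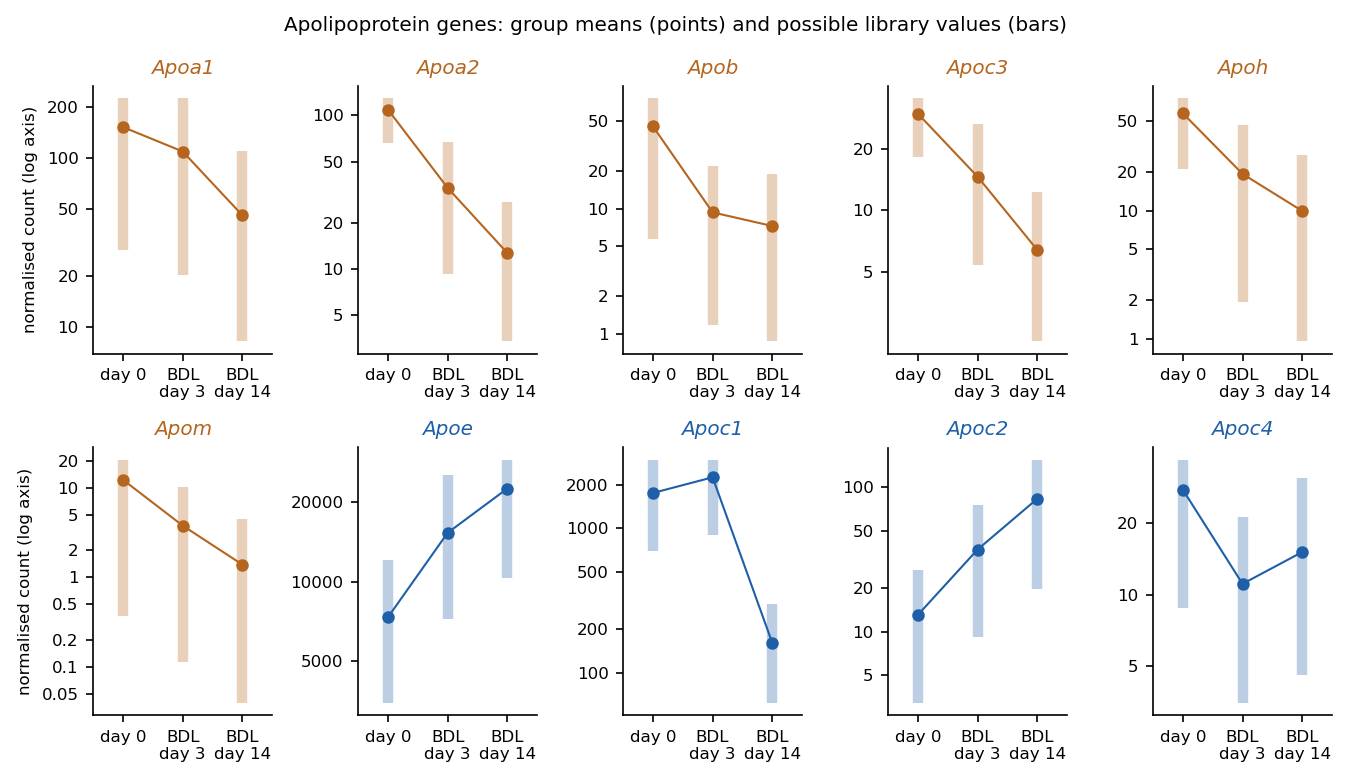
Group means (points) of the 10 apolipoprotein genes on day 0, BDL day 3 and BDL day 14, in upper quartile normalised counts on a log axis, with bars for the range that any library of the group can have. The 6 hepatocyte-type genes (brown) step down at each time, *Apoe* and *Apoc2* step up, and the BDL day 14 bar of *Apoc1* ends at 301, below the lowest possible value of 698 on day 0.

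On BDL day 3 against day 0, 6 of the 10 members were past 1.5-fold lower, where 29.2% of all genes kept were. These were *Apoa2*, *Apob*, *Apoc3*, *Apoh*, *Apom* and *Apoc4*. *Apoe* and *Apoc2* were past 1.5-fold higher, where 19.2% of all genes were. On BDL day 14 against day 0, 8 members were past 1.5-fold lower (28.8% of all genes) and the same *Apoe* and *Apoc2* higher (21.2%). Both comparisons use the same day 0 libraries. From BDL day 3 to BDL day 14, 6 members were past 1.5-fold lower (19.7% of all genes) and *Apoc2* alone was higher (21.2%), with *Apoe* just inside that limit at 1.47-fold.

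The hepatocyte-type members had a median log2 ratio of -1.63 on BDL day 3 and -2.59 on BDL day 14, each against day 0, where the medians of all genes kept were -0.02 and -0.04. For the macrophage-type members these medians were 0.71 and 0.37, and they stand for 4 genes that do not run together. The difference between the class medians was -2.34 on BDL day 3 and -2.97 on BDL day 14, and -1.72 between BDL day 14 and BDL day 3. The value on BDL day 14 depends on the classes, for it was -4.21 with *Apoe* alone as the macrophage-type gene and -4.15 with *Apoc4* moved to the hepatocyte-type genes.

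Only a few members could be shown to have libraries that do not overlap between groups. By the group means and the highest library, this held for 0 members on BDL day 3 against day 0 (1.96% of all genes), for *Apoa2* on BDL day 14 against day 0 (1.59%) and for *Apoc1* on BDL day 14 against BDL day 3 (0.574%). With the geometric mean as a further limit, it held for 0 members (4.72%), for *Apoa2*, *Apoc3* and *Apoc1* (4.50%) and for *Apoc1* (2.36%) in the same comparisons. In the other members the limits leave room for overlap, which does not show that the libraries did overlap.

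**Figure D2:**
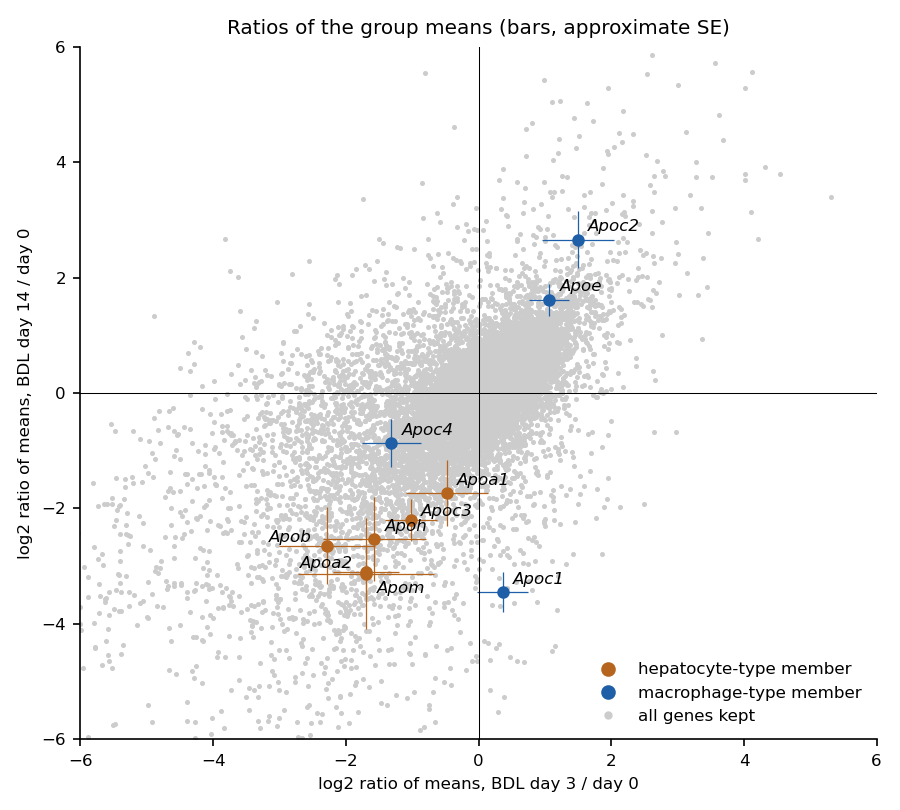
Log2 ratios of the group means of BDL day 3 to day 0 (x) and of BDL day 14 to day 0 (y) for all 12889 genes kept (grey) and the 10 members (brown, hepatocyte-type; blue, macrophage-type), with bars of 1 approximate SE. The hepatocyte-type genes lie together at lower left, *Apoe* and *Apoc2* at upper right, and *Apoc1* alone to the right of 0 and low at -3.45; 95 genes lie outside the axes, which end at 6.

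*Apoa1* and *Apoa2* encode the main structural proteins of high density lipoprotein. *Apoa1* had means of 152, 109 and 45.7 normalised counts on day 0, BDL day 3 and BDL day 14, and its highest library stood at 225. Relative to day 0 its log2 ratio was -0.48 (SE 0.62) on BDL day 3, less than its error, and -1.73 (SE 0.58) on BDL day 14. *Apoa2* had means of 109, 33.7 and 12.7, and its highest library, which can only be one of day 0, stood at 129. No day 0 library of *Apoa2* can be below 66.5, and no BDL day 14 library above 27.2, so these groups are apart. Its log2 ratios were -1.69 (SE 0.49) and -3.10 (SE 0.46), and 4.63% of all genes kept were as low or lower on BDL day 14. By these means *Apoa1* differed less than *Apoa2* on BDL day 3, and the ratio of *Apoa1* to *Apoa2* per kilobase of exon went from 0.606 on day 0 to 1.41 on BDL day 3 and 1.56 on BDL day 14.

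*Apob* encodes the large protein that frames very low density lipoprotein and its remnants. Its means were 45.4, 9.32 and 7.25, so most of its difference was in place on BDL day 3. Against day 0 its log2 ratio stood at -2.28 (SE 0.72) on BDL day 3 and -2.65 (SE 0.67) on BDL day 14, and that between the BDL groups was -0.36 (SE 0.67). A single day 0 library with 76.3 held 56.0% of the day 0 sum. Without it the day 0 mean was 29.9 and the log2 ratios -1.68 and -2.05. Per kilobase of exon *Apob*, whose exons cover 13934 bases, was the lowest member in each group, at 3.26, 0.669 and 0.520.

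*Apoc3* encodes an inhibitor of lipoprotein lipase and of the uptake of remnants, and lies end to end with *Apoa1*. Its means were 29.6, 14.6 and 6.42. The log2 ratio was -1.02 (SE 0.39) on BDL day 3 and -2.20 (SE 0.37) on BDL day 14, the smallest errors among the hepatocyte-type members. With the geometric mean as a limit, every day 0 library lay at 18.1 or more and every BDL day 14 library at 12.3 or less. The ratio of *Apoa1* to *Apoc3* per kilobase lay between 4.21 and 6.12 over the 3 groups, and moved by up to 0.54 on the log2 scale. On BDL day 3 *Apoa1* was at -0.48 (SE 0.62), so these errors are too wide to show whether the neighbours differed alike. *Apoa2* and *Apom*, which lie on separate chromosomes, were both at -1.69 on BDL day 3 (SE 0.49 and 1.03). Without the highest library of each they were at -1.55 and -1.10. Whether neighbours differed more alike than genes lying apart was not tested.

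*Apoh* encodes beta-2 glycoprotein I, which binds phospholipids and takes part in clotting, and *Apom* the carrier of sphingosine 1-phosphate on high density lipoprotein. *Apoh* had means of 57.7, 19.4 and 9.95, with log2 ratios of -1.57 (SE 0.78) and -2.54 (SE 0.73). The first 575 bases of *Apoh* overlap the start of *Prkca* on the other strand, and the sources used here do not say whether the counting used strand. *Apom* had means of 12.2, 3.77 and 1.39, and the 4 libraries of BDL day 14 summed to 5.56 normalised counts. It had the largest spread of the members (SD 1.26), and its log2 ratios were -1.69 (SE 1.03) and -3.13 (SE 0.96). Without its highest library, a day 0 library with 20.4, the day 0 mean was 8.10 and the ratios -1.10 and -2.54. *Apoh* and *Apom* were lower at both times by these means, and *Apom* is the member whose size of difference is least certain.

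*Apoe* encodes the ligand by which remnants and macrophage-derived particles enter cells through receptors of the LDL receptor family. It was by far the most abundant member, with means of 7330, 15300 and 22500 normalised counts. *Apoe* took 0.794% of the summed signal of the table on day 0, 1.81% on BDL day 3 and 3.06% on BDL day 14, and ranked 25th, 13th and 3rd among the genes kept by level per kilobase of exon. Relative to day 0 its log2 ratio was 1.06 (SE 0.30) on BDL day 3 and 1.62 (SE 0.28) on BDL day 14, and 3.50% of all genes kept were as high or higher at the later time. No day 0 library can be above 12053 and no BDL day 14 library below 10336, which leaves a narrow band where they could overlap. Quantile normalisation of the group means, which sets each rank to 1 common value, gave *Apoe* a larger log2 ratio of 1.91 and 3.08.

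*Apoc1* encodes a small protein that hinders the uptake of remnants. Its means were 1760, 2260 and 161 normalised counts. On BDL day 3 it was within its error of day 0 (log2 ratio 0.36, SE 0.38), and quantile normalisation turned the sign (-0.05). On BDL day 14 it was at -3.45 (SE 0.35) against day 0 and -3.81 (SE 0.35) against BDL day 3, which 0.590% of all genes kept reached or passed on the low side. All BDL day 14 libraries must lie at 301 or less, and all BDL day 3 libraries at 897 or more. *Apoc1* was thus the second most abundant member in every group and also the one with the largest difference on BDL day 14.

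*Apoc2* encodes the cofactor that lipoprotein lipase needs. Its means were 13.1, 37.0 and 82.9, with log2 ratios of 1.498 (SE 0.54) on BDL day 3 and 2.66 (SE 0.50) on BDL day 14, where 1.02% of all genes kept were as high or higher. Its highest library, a BDL day 14 library with 154, held 46.4% of that group's sum, and without it the ratio on BDL day 14 was 2.18. *Apoc4* encodes a minor very low density lipoprotein protein. It had means of 27.6, 11.1 and 15.1, with log2 ratios of -1.31 (SE 0.44) and -0.87 (SE 0.41), and was the only member lower at both times with a BDL day 14 mean above that of BDL day 3 (log2 ratio 0.44, SE 0.41). *Apoc2* and *Apoc4* share the readthrough gene named above, and the split of reads among the 3 was not tested.

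**Figure D3:**
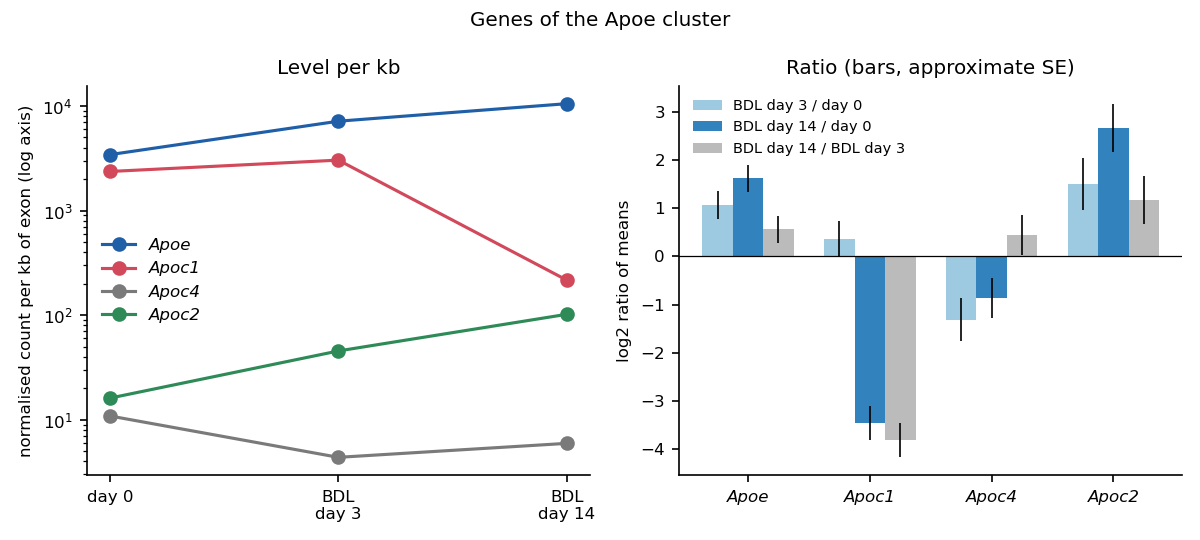
The 4 genes of the *Apoe* cluster in their order of transcription. Left, group means per kilobase of exon on a log axis; right, log2 ratios between the groups with bars of 1 approximate SE. *Apoe* and *Apoc1* start within 1.45-fold of each other and end 48.6-fold apart, while *Apoc2* goes up and *Apoc4* stays under 11 per kilobase.

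The balance of the genes within the cluster differed between the groups. Per kilobase of exon, *Apoe* was 1.45 times *Apoc1* on day 0, 2.36 times on BDL day 3 and 48.6 times on BDL day 14. The ratio of *Apoc2* to *Apoc4* went from 1.48 to 10.4 and 17.1, and that of *Apoe* to *Apoc2* from 213 to 157 and 103. No error was worked out for these ratios. From day 0 to BDL day 3 that of *Apoe* to *Apoc2* moved by -0.44 on the log2 scale. This is less than the SE of *Apoc2* alone (0.54). Each ratio is taken within the same libraries, so that a scaling factor per group cancels in it.

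By level per kilobase of exon, the order of the members on day 0 was *Apoe* (3428), *Apoc1* (2366), *Apoa2* (203), *Apoa1* (123), *Apoh* (36.2), *Apoc3* (29.2), *Apoc2* (16.1), *Apom* (12.0), *Apoc4* (10.9) and *Apob* (3.26). Of these neighbours, only *Apoc1* and *Apoa2* had ranges of possible library values that do not overlap. On BDL day 14 the order was *Apoe* (10524), *Apoc1* (216), *Apoc2* (102), *Apoa1* (37.0), *Apoa2* (23.6), *Apoc3* (6.33), *Apoh* (6.24), *Apoc4* (5.95), *Apom* (1.37) and *Apob* (0.520), and only *Apoe* and *Apoc1* were apart by the same measure. *Apoe* made up 55.1% of the 10 members' level per kilobase on day 0, 68.6% on BDL day 3 and 96.3% on BDL day 14, and the hepatocyte-type members together made up 6.53%, 1.74% and 0.687%.

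The members were set beside markers of the cells known to make them. The 16 hepatocyte markers had a median log2 ratio of -1.79 on BDL day 3 and -2.73 on BDL day 14, next to -1.63 and -2.59 for the hepatocyte-type members. Among the markers with no mean at the floor, *Serpina1a* and *Serpina1b*, both alpha-1 antitrypsin genes, were lowest on BDL day 14 (-3.61 and -3.41). *Trf*, the transferrin gene, was highest (0.22). The 10 macrophage markers had medians of 0.83 and 0.17. Of these, *Lyz2*, the lysozyme gene, was at 2.30 on BDL day 14, above *Apoe*, and *C1qc*, a complement subunit gene, was at -0.80. The part of hepatocyte or macrophage number in the members' values was not tested.

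Markers of resident and of recruited macrophages ran apart on BDL day 14, as *Apoc1* did from *Apoe* and *Apoc2*. The 8 Kupffer cell markers summed to 10610, 23450 and 1978 normalised counts. All 8 were past 1.5-fold lower on BDL day 14 against day 0 (28.8% of all genes kept). On BDL day 3, 7 of the 8 were past 1.5-fold higher (19.2% of all genes kept). *Clec4f* and *Timd4*, surface receptors of Kupffer cells, had log2 ratios of -4.64 and -4.47 on BDL day 14. The 8 recruited macrophage markers summed to 505, 2191 and 4978. On BDL day 14, 7 of 8 were past 1.5-fold higher (*Gpnmb* 6.42, *Chil3* 5.87) and *Ly6c2* lower (-1.71), where 21.2% and 28.8% of all genes kept were. On BDL day 3, 5 were past 1.5-fold higher and 1 lower (19.2% and 29.2% of all genes kept). Both lists were up at that time, with median log2 ratios of 1.04 (Kupffer cell) and 1.63 (recruited). *Apoc1*, *Apoe* and *Apoc2* were measured in the same bulk libraries as these markers, not cell by cell. The share of each kind of macrophage in these libraries was not tested.

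**Figure D4:**
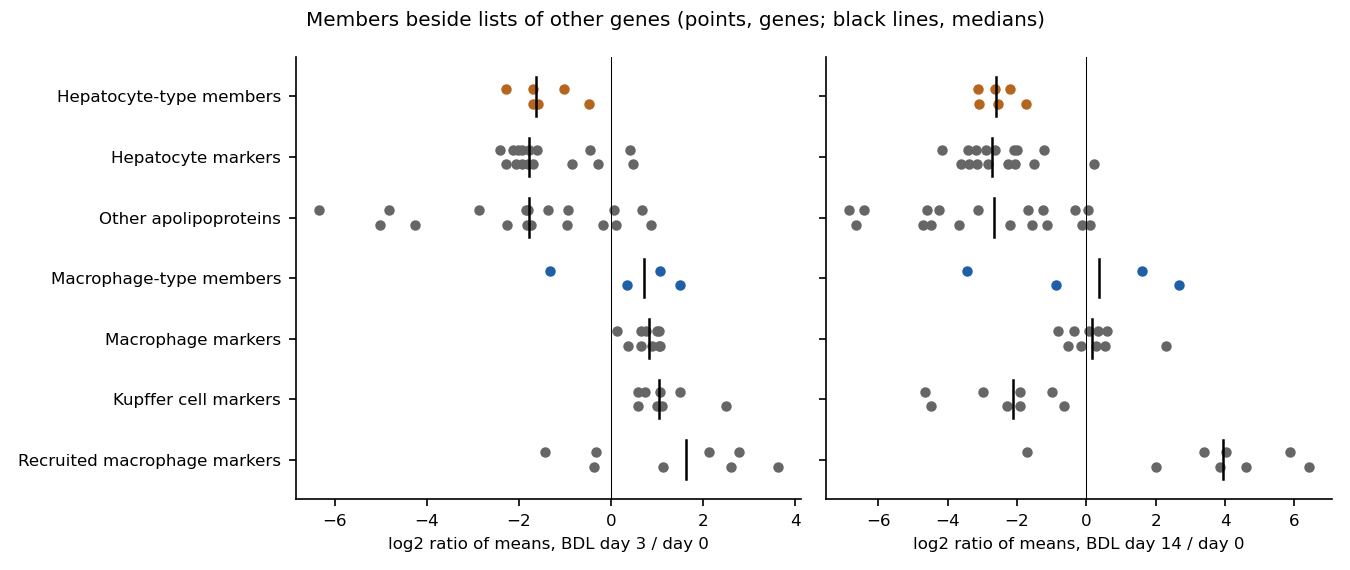
Log2 ratios of group means on BDL day 3 (left) and BDL day 14 (right), each to day 0, for the members (coloured) and for lists of other genes (grey), with 1 point per gene and black lines at the medians. The hepatocyte-type members sit among the hepatocyte markers (medians -2.59 and -2.73 on BDL day 14), and the macrophage-type members span the range from -3.45 to 2.66; values with a mean at the floor are bounds.

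Other apolipoprotein genes and proteins of lipoprotein particles were counted next, from a list of 21 genes of which 18 were kept. On BDL day 14 against day 0, 14 of the 18 were past 1.5-fold lower and 0 higher (28.8% and 21.2% of all genes kept), with a median log2 ratio of -2.66. *Saa1* and *Saa2*, acute-phase proteins carried on high density lipoprotein, were lowest among the genes with no mean at the floor, at -6.41 (SE 1.70) and -6.83 (SE 2.25), from day 0 means of 185 and 257. *Apool* and *Apoo*, named as apolipoproteins but known as parts of the mitochondrial MICOS complex, were highest at 0.10 and 0.06. On BDL day 3, 13 were past 1.5-fold lower and 2 higher (29.2% and 19.2% of all genes kept). The list ran with the hepatocyte-type members in direction, and 4 of its genes were at the floor on BDL day 14.

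Genes that load lipid onto apolipoprotein B or help it leave the cell were counted beside *Apob*. Of 13 genes kept, 4 were past 1.5-fold lower and 4 higher on BDL day 14, where 28.8% and 21.2% of all genes kept were. *Mttp*, whose product transfers lipid to apolipoprotein B, was at 4.15, 2.70 and 0.909 (log2 ratio -2.19, SE 0.83, on BDL day 14), and *Cideb*, which enlarges the particles, was at -2.64 (SE 0.82). *Apobec1*, the enzyme that edits *Apob* mRNA, had means of 115, 200 and 261 (log2 ratio 1.18, SE 0.16), opposite to *Apob*. *Sort1*, a sorting receptor for apolipoprotein B, had means of 15.0, 4.93 and 40.7, with log2 ratios of -1.61 (SE 0.75) on BDL day 3 and 1.44 (SE 0.70) on BDL day 14.

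Receptors and lipases that meet apolipoproteins E, C-II and C-III were measured as well. Of 21 genes kept, 5 were past 1.5-fold lower and 8 higher on BDL day 14, next to 28.8% and 21.2% of all genes kept. *Cd36*, a scavenger receptor, had means of 70.8, 208 and 319 (log2 ratio 2.17, SE 0.54), and *Gpihbp1*, which anchors lipoprotein lipase on capillaries, had means of 68.5, 36.2 and 204 (-0.92, SE 0.66, on BDL day 3 and 1.57, SE 0.62, on BDL day 14). *Angptl4*, an inhibitor of lipoprotein lipase, was at -2.89 (SE 0.67) and *Lcat*, which esterifies cholesterol on high density lipoprotein with apolipoprotein A-I as cofactor, at -2.86 (SE 1.43).

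In the cholesterol efflux and liver X receptor list, 11 of 13 genes kept were past 1.5-fold higher on BDL day 3 and 0 lower (19.2% and 29.2% of all genes kept), and on BDL day 14 there were 4 higher and 3 lower (21.2% and 28.8%). *Abca1*, the transporter that lipidates apolipoproteins A-I and E, had means of 43.3, 103 and 126 (log2 ratio 1.54, SE 0.33, on BDL day 14). *Scd2*, a fatty acid desaturase, was at 1.90 (SE 0.29). *Nr1h3*, the liver X receptor alpha gene, had means of 274, 457 and 34.9, and was at -2.97 (SE 0.51), and *Pltp*, the phospholipid transfer protein, had means of 609, 1110 and 279 (-1.13, SE 0.31). *Nr1h3* was thus lower on BDL day 14, as *Apoc1* was and *Apoe* was not. It is also 1 of the 8 Kupffer cell markers, all of which were lower at that time. A part of *Nr1h3* in the levels of either gene was not tested.

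Of the 18 liver transcription factors known to act on apolipoprotein genes, 10 were kept, and 7 of these were past 1.5-fold lower and 0 higher on BDL day 14 (28.8% and 21.2% of all genes kept). *Hnf4a*, a nuclear receptor on which many hepatocyte genes depend, had means of 27.8, 6.47 and 3.74 (log2 ratio -2.89, SE 0.29), and *Creb3l3*, a liver factor of triglyceride metabolism, was at -3.31 (SE 0.30). *Nr5a2*, a nuclear receptor of bile acid genes, with means of 6.08, 2.01 and 9.03, was highest at 0.57 (SE 0.74) and *Cebpa*, which myeloid cells also express, followed at 0.34 (SE 0.30). The levels of *Hnf4a* in the 3 groups had the order of the 6 hepatocyte-type members.

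Among 5924 other genes with a mean of at least 10 in every group, the genes nearest to *Apoe* in the plane of the ratios to day 0 were *Tpd52*, *Atp6v1a*, *Slc37a2*, *Gpr146* and *Pfkfb4*, at distances of up to 0.104 on the log2 scale. Those near the median of the hepatocyte-type members included *Cdo1*, *mt-Nd6*, *Stard10* and *Ifi27l2a*, within 0.31. *Apoc1* had no neighbour as close. The nearest, looked up after its values were seen, were *Folr2* at 0.44, *Siglece* at 0.54 and *Nr1h3* at 0.61, and *Folr2* had means of 602, 1020 and 62.8. For *Apoc2*, also looked up afterwards, *Pf4* stood at 0.36. This likeness rests on 3 group means per gene.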

How the data were processed

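GFP(+) cells were sorted by FACS and their mRNA was sequenced on an Illumina NextSeq. Trimming, alignment to mm10 with STAR (2.6.1d in the submitters' processing notes), counting on GENCODE M18 genes and upper quartile normalisation were done by the authors in Partek Flow. The deposited table holds signal values, the authors' mean of normalised counts per group, with the arithmetic and geometric means and the highest library over 10 libraries. It has 0 columns per library. Its p-values, FDR, ratios, fold changes and limits for the 3 comparisons were not used. The study left out 2 BDL day 14 libraries for too few reads.

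Group sizes of 3, 3 and 4 gave back the overall mean with a 99th percentile deviation of 0.469%. Genes with summed counts of at least 10 were kept. A fold of 1.5 between means was counted, after the study's threshold, with no test. Limits on library values by the group means and the highest library were planned. Those by the overall geometric mean, and the approximate SD, were added after the data were seen. They were checked on simulated data with the same spread in all 3 groups. The check of the SD therefore does not cover groups of unequal spread. Lengths and positions came from GENCODE M21. The text names the 10 members, of each list the 2 highest and 2 lowest genes on BDL day 14 with no mean at the floor, and the 5 nearest genes, some of which are not reported here. Any further gene was picked with its values in view. The members and lists were chosen with earlier results of these data known. Alternatives were median-ratio scaling, quantile normalisation, a pseudocount of 1, a fold of 2, no filter or a mean of at least 10, a margin of 5%, other classes and the highest library left out. Python 3.11.15, numpy 2.4.6 and pandas 2.3.3 were used.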

Additional observations from a re-analysis of the deposited data

How the results depend on the processing

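No member changed the direction of a difference that was past 1.5-fold under median-ratio scaling, quantile normalisation, a pseudocount of 1 or without the highest library where it could be placed. The difference between the class medians on BDL day 14 against day 0 became -4.15 with *Apoc4* among the hepatocyte-type genes and -4.21 with *Apoe* alone as macrophage-type, from -2.97. Between BDL day 14 and BDL day 3 it was -0.69 with class means in place of medians, from -1.72, because *Apoc1* weighs on the mean. Quantile normalisation put 2 members past 1.5-fold higher in that comparison, from 1, since *Apoe* reached a log2 ratio of 1.17. The members whose libraries cannot overlap on BDL day 14 against day 0 were 3 with the geometric mean as a limit, also with a margin of 5%, from 1 without it. No paired analysis was possible because the table holds group means only. For the same reason each replicate could not be left out in turn. Depth per library is unknown, so *Apom* and other low means carry a counting error that could not be given.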
